A study of Mus musculus with 15 samples.

Results

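RNA polymerase II (RNAPII) was followed along 1046 long protein-coding genes of mouse fibroblasts during the first 4 h of Myc activation. These are the genes of 100 kb or more, measured on their longest protein-coding transcript in GENCODE vM1 (mm9 build), that had a narrow RNAPII peak within 1 kb of the transcription start site (TSS) at 0 min. Of 22359 protein-coding genes, 2324 were that long, and 10238 of any length had such a peak, so 1278 long genes stayed outside. The RNAPII list at 0 min therefore chose the members, and their 0 min values are a description. The shortest member was Ccdc18 with 100034 bp, and Zcchc11 lay just outside with 99990 bp. The member with the farthest peak was Akap7, at 895 bp from its TSS, while the nearest peak of a long gene outside the rule, Mettl15, lay 1390 bp away. The median length was 154902 bp. The longest member, Gm20388 (4434882 bp), and Fgfr2 (3009069 bp) owe their lengths to a single annotated transcript each.

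The cells were 3T9 fibroblasts, an established line from mouse embryos with c-mycflox/flox alleles, infected in vitro with MycER. MycER is Myc fused to a hormone-binding domain that responds to 4-hydroxytamoxifen (OHT). All groups shared this genotype. The first group (0 min) had no OHT, and the other groups had 400 nM OHT for 10 min, 20 min, 30 min, 2 h or 4 h. Chromatin immunoprecipitation with sequencing used antibody N20 for RNAPII and N262 for Myc, which the labels do not tie to either MycER or the cells' own Myc. Miz1 (Zbtb17), a DNA-binding partner of Myc, was mapped in the same cells without OHT. With 1 library in each group nothing below was replicated or tested. Of 8 fibroblast markers, 6 had RNAPII at the promoter at 0 min (Thy1 and Postn did not), against 0 of 3 epithelial, 0 of 3 endothelial, 0 of 3 blood and 0 of 2 hepatocyte markers.

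RNAPII starts at the promoter, often pauses shortly after it, and is then released to read through the gene body. Long genes keep a polymerase on the template for a long time, most of it in introns, and their first intron is often by far the largest. Myc binds promoters that already carry RNAPII, preferably at the E-box CACGTG, and is known to act on release from pausing as well as on loading. A peak list shows where signal over control passed a threshold, not how fast the polymerase moved.

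Myc reached nearly all of these promoters, so the sites under the Myc summits are shown first. The stretches below are those parts of mm9 that surround the CACGTG nearest to the Myc summit at 4 h, read along the strand of the gene, with CACGTG in capitals. The first 5 belong to promoter peaks with a high Myc fold or of genes described below for their RNAPII, and the other 3 to the strongest Myc peak inside the gene, each in an intron.
Mthfd1l: cacgccccgctcCACGTGcaccgcccgcct
Ino80: ttaggccaggtgCACGTGggacccggtggg
Pbrm1: cttctcgggcgcCACGTGcgaactggaact
Hmga2: tgctggcgggagCACGTGagccggggctcc
Smad3: tacccggtggccCACGTGggcgcgcttggc
Prkca: tgttacacagcaCACGTGcaggaagaacct
Atxn1: tggaagagaaggCACGTGggtgaagcacgt
Ext1: cacacacacacaCACGTGcttacagctagg
The promoter E-boxes lay at chr10:6372802-6372807 (Mthfd1l, minus strand, intron, 603 bp downstream of the TSS), chr2:119302816-119302821 (Ino80, minus strand, intron, 602 bp downstream), chr14:31832189-31832194 (Pbrm1, plus strand, upstream of the gene), chr10:119914264-119914269 (Hmga2, minus strand, upstream) and chr9:63606124-63606129 (Smad3, minus strand, upstream). Those inside genes lay at chr11:108078591-108078596 (Prkca, minus strand, 126646 bp from the TSS), chr13:45665323-45665328 (Atxn1, minus strand, 395017 bp) and chr15:53090853-53090858 (Ext1, minus strand, 86856 bp). The Ext1 site sits at the end of a CA repeat.

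The length of a peak depends on sequencing depth, so the libraries bear on every value below. Tag numbers for RNAPII were close in the 0 min (15276996), 30 min (16274905) and 4 h (16268203) libraries. The 10 min (19999678) and 2 h (19859793) libraries form a second close pair, and the 20 min library was the deepest with 36396286 tags in its narrow list. Each library has a narrow and a broad peak list, and the narrow lists lack a peak at some places with strong signal. Broad peaks of 20-fold enrichment or more with no narrow peak over them numbered 21, 58, 125, 50, 41 and 23 genome-wide, from 0 min to 4 h in order of time. The rule required a narrow peak of each member at 0 min, so none could lack it then. From 10 min to 4 h, 4, 12, 6, 1 and 0 members had a broad peak of that strength at the TSS and no narrow peak. A run of 0 bp at these genes means that no narrow peak was called, not that RNAPII was absent. Caldesmon (Cald1, an actin-binding protein of contractile fibres) is the clearest case. Its narrow run measured 46182 bp at 0 min, 0 at 10, 20 and 30 min, 27989 bp at 2 h and 27904 bp at 4 h, whereas its broad peak at the TSS was 43.9, 41.1, 32.1, 27.6, 21.9 and 36.7-fold enriched at the 6 times. The breaks at 2 h and 4 h were short as well, and with gaps of up to 1 kb bridged the Cald1 runs there were 46226 and 46064 bp. The fold values of peaks are the authors' own.

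**Figure D1:**
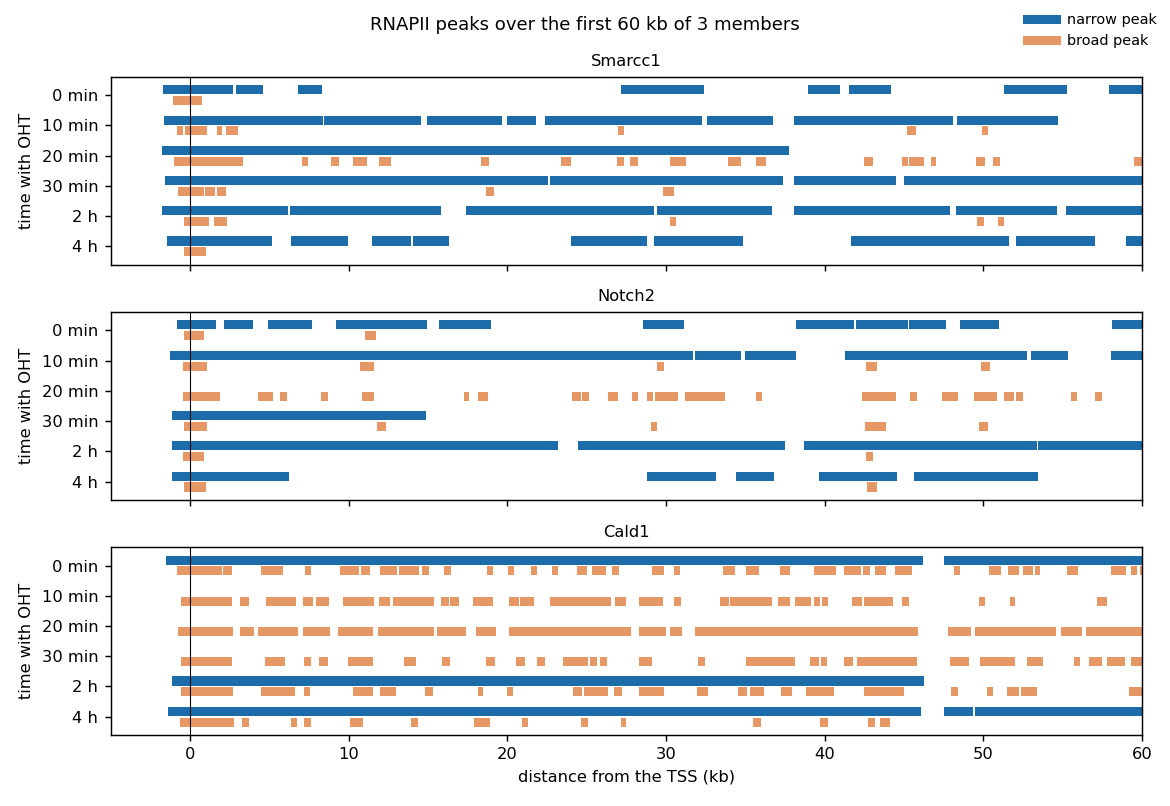
RNAPII peaks of 3 members, Smarcc1, Notch2 and Cald1, by distance from the TSS in kb (x axis) and time with OHT (y axis), blue bars for narrow and orange bars for broad peaks. Smarcc1 has a run of 2682 bp at 0 min and of 37735 bp at 20 min. Notch2 at 20 min and Cald1 at 10, 20 and 30 min show broad peaks over a stretch with no narrow peak at the TSS.

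The contiguous run is the distance downstream of the TSS to the end of the narrow peak over the TSS, or of the nearest one downstream within 1 kb, with no gap bridged. Most runs were short at every time. Over the 1046 members the median took the values 1285, 1499.5, 1536.5, 1350.5, 1405 and 1256 bp from 0 min to 4 h. From 10 min to 4 h, 40, 32, 56, 65 and 47 members had no narrow peak at the TSS and entered with a run of 0. In the members with one, the median was 1402 bp at 30 min (990 members) and 1291 bp at 4 h (999 members). The first and the third quartile were 999.5 and 1846 bp at 0 min and 1025 and 2032.2 bp at 30 min. At 0 min 9 members had a peak only on the upstream side of the TSS and a run of 0. Runs of 5 kb or more were found in 35 members at 0 min (3.35%), 71 at 10 min (6.79%), 93 at 20 min (8.89%), 60 at 30 min (5.74%), 53 at 2 h (5.07%) and 34 at 4 h (3.25%). Thus the number was larger at each time from 10 min to 2 h than at 0 min, and at 4 h was back beside it. In the 4179 genes of 20 to 100 kb with promoter RNAPII these shares were 6.65%, 12.8%, 16.3%, 10.4%, 9.48% and 7.32% in order of time, so a smaller part of the long genes had such runs, and 20 min was highest in both sets.

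**Figure D2:**
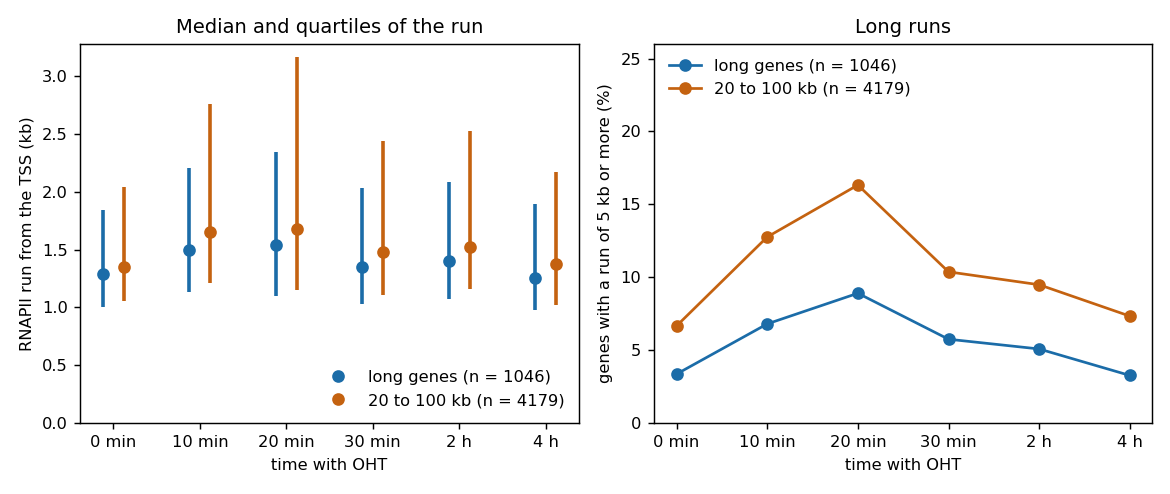
RNAPII run from the TSS in kb (left, points for medians and bars for quartiles) and percent of genes with a run of 5 kb or more (right) against time with OHT, for the 1046 long genes (blue) and the 4179 genes of 20 to 100 kb (orange). Both sets are highest at 20 min, where the library is deepest, and the long genes lie below the shorter ones throughout.

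The 5 comparisons with 0 min share that library. The members with a run longer by 5 kb or more than at 0 min numbered 31 at 10 min (2.96%), 49 at 20 min (4.68%), 20 at 30 min (1.91%), 11 at 2 h (1.05%) and 3 at 4 h (0.287%). Over all 5225 genes of 20 kb or more with promoter RNAPII, members included, these shares were 5.09%, 8.44%, 3.37%, 2.64% and 1.57%. Members whose run was shorter by as much numbered 6, 10, 9, 4 and 6 at the same times, against 0.957%, 1.21%, 1.13%, 1.4% and 1.55% of all 5225 genes. Of the shorter ones, 5 at 10 min, 8 at 20 min and 4 at 30 min had no narrow peak at the TSS then. The members' share of longer runs was below that of all genes at each time. So was their share of shorter runs, with 0.574%, 0.956%, 0.860%, 0.382% and 0.574%. The median difference from 0 min was 191.5 bp at 10 min, 162 bp at 20 min, 70 bp at 30 min, 101 bp at 2 h and -17.5 bp at 4 h. Members without a narrow peak at the later time enter these medians with a run of 0. 

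Bridging gaps of up to 1 kb gave larger counts. Longer members then numbered 42, 66, 30, 15 and 11 from 10 min to 4 h, against 7.1%, 12%, 5.47%, 4.08% and 2.95% of all 5225 genes. Shorter ones numbered 12, 14, 13, 12 and 16, against 1.34%, 1.53%, 1.72%, 1.8% and 2.39%. In the broad lists, whose peaks are shorter, 0, 1, 1, 0 and 0 members were longer (0.115%, 0.325%, 0.134%, 0.0766% and 0.0574% of all genes). There 0, 0, 0, 1 and 1 were shorter (0.0191%, 0.0191%, 0.0191%, 0.0766% and 0.0957%).

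Of the 20 members longer at 30 min, 18 were so with gaps bridged too, 6 had no narrow peak at the TSS at 20 min, and 3 hold the TSS of another protein-coding gene. Of the 10 with the largest gains, 9 are described next. The other 10, named after their values were seen, were Adk, Cdk6, Col8a1, Eml4, Gfod1, Pkp4, Rai14, Snd1, Wdr70 and Zswim6. Adk, adenosine kinase, had runs of 1369, 11017, 12290, 11431, 10443 and 5449 bp from 0 min to 4 h. Gfod1 had runs of 2035, 9105, 10839, 9716, 2164 and 2426 bp. Both were longest at 20 min, and Adk was still above 10 kb at 2 h where Gfod1 was back near its 0 min value.

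Hmga2 (chr10:119798331-119913525, minus strand), an architectural chromatin protein of proliferating mesenchymal cells, had the longest run of all members. It measured 86357 bp at 0 min, 115195 bp (the whole gene) at 10, 20 and 30 min, 80255 bp at 2 h and 51871 bp at 4 h. The run was thus full-length in the 3 early libraries with OHT and shortest at 4 h. With gaps of up to 1 kb bridged it was full-length at 0 min too, so the gain from 0 to 30 min in the narrow list rests on a gap of that size. In the broad lists the Hmga2 run was 3351, 3470, 25930, 45121, 1457 and 1369 bp at the 6 times. Broad cover from 10 to 100 kb was 38.2%, 95.4%, 96.7%, 86.8%, 19.7% and 6.02%. Between 10 and 100 kb, narrow peaks covered 96.5% to 100% of Hmga2 at every time, the only member at 50% or more at all 6.

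Smarcc1 (chr9:110034541-110142682, plus strand), a core subunit of SWI/SNF chromatin remodelers, had runs of 2682 bp at 0 min, 8401 bp at 10 min, 37735 bp at 20 min, 22558 bp at 30 min, 6188 bp at 2 h and 5130 bp at 4 h. Its 30 min run was thus longer than those at 0 min and 4 h in libraries of near-equal tag number. With gaps of up to 1 kb bridged the values were 4611, 36766, 37735, 60698, 15839 and 5130 bp. Pan3, a subunit of the Pan2-Pan3 deadenylase that shortens poly(A) tails, had runs of 1713, 9217, 34094, 15372, 5803 and 8665 bp at the 6 times in order. Spata5, an ATPase of the AAA family, had runs of 1641, 6736, 21817, 12458, 4179 and 1842 bp. With no gap bridged these 3 genes were highest at 20 min and next at 30 min. Bridging gaps of up to 1 kb alters that order: Pan3 then had 1713, 16591, 67535, 15372, 11767 and 11511 bp, Spata5 had 1641, 6736, 24402, 25412, 4179 and 5531 bp, and Smarcc1 and Spata5 were highest at 30 min.

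Mthfd1l (chr10:6179460-6373410, minus strand), a mitochondrial folate enzyme that yields formate, showed another shape. Its run was 1931 bp at 0 min and 12868, 13334, 13189 and 12901 bp at 10, 20 and 30 min and 2 h, then 3958 bp at 4 h. The 4 middle values agree within 1 kb although their libraries differ in depth, and with gaps of up to 1 kb bridged the 4 h run was 12495 bp as well. Samd4, an RNA-binding repressor of translation, had runs of 6754, 14480, 17367, 21850, 4298 and 2287 bp, longest at 30 min and shorter at 2 h and 4 h than at 0 min. C230081A13Rik had runs of 1819, 3425, 8283, 13505, 2788 and 2388 bp, again longest at 30 min.

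A further 2 of the 10 largest gains from 0 to 30 min were in genes that lacked a narrow peak at 20 min. Notch2, a receptor of the Notch pathway, had runs of 1619 bp at 0 min, 31686 bp at 10 min, 14848 bp at 30 min, 19146 bp at 2 h and 6260 bp at 4 h, and at 20 min no narrow peak beside a 60.3-fold broad peak. Prkca (protein kinase C alpha) had runs of 3048, 20354, 20041, 2832 and 3243 bp at 0, 10 and 30 min, 2 h and 4 h, with no narrow peak at 20 min beside a 35.6-fold broad peak.

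**Figure D3:**
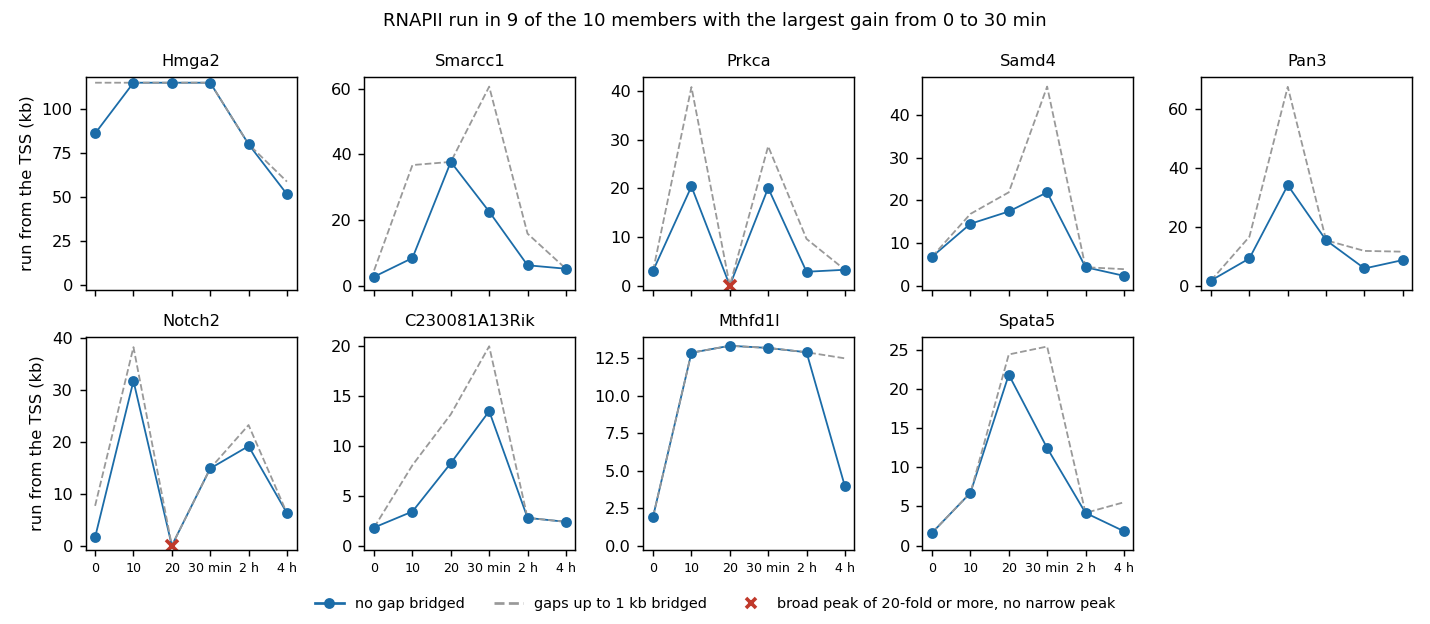
RNAPII run in kb (y axis, scaled per panel) against time with OHT in 9 of the 10 members with the largest gain from 0 to 30 min. Blue points and lines bridge no gap, dashed grey lines bridge gaps of up to 1 kb, and red crosses mark a missing narrow peak beside a broad peak of 20-fold or more. With no gap bridged, the run at 4 h lies under 10 kb in 8 of 9 panels, Hmga2 being the exception. With gaps bridged, those of Mthfd1l (12495 bp) and Pan3 (11511 bp) lie above 10 kb as well.

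The members with the largest losses from 0 to 30 min were Cald1, Eya4, Asap1, Meis1, Hspg2 and Erbb2ip. Eya4, a phosphatase and transcriptional coactivator, had runs of 46023, 0, 0, 15405, 51090 and 29972 bp at the 6 times, with broad TSS peaks of 14.8 and 13.8-fold at the 2 times without a narrow peak. Asap1, a GTPase-activating protein for Arf, had 12960 bp at 0 min, 13015 bp at 4 h and no narrow peak between, beside a 33.4-fold broad peak at 30 min. Meis1, a homeobox factor, kept a narrow peak at each time, with runs of 13871, 12185, 7775, 2386, 12152 and 11927 bp. Perlecan (Hspg2), a basement membrane proteoglycan, had 14500, 22664, 22572, 3679, 11001 and 11509 bp. Erbb2ip, a scaffold of lateral membranes, had 12448, 5586, 8396, 2852, 8942 and 2525 bp. In the last 3 the 30 min value was low without a missing peak. With gaps of up to 1 kb bridged, the runs at 0 and 30 min were 13871 and 6036 bp in Meis1, 62651 and 12928 bp in Hspg2, and 12448 and 8117 bp in Erbb2ip.

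Some other long runs differed less between times with no gap bridged. Col5a2, a chain of type V collagen, had runs of 17298, 16894, 16831, 17007, 17396 and 17863 bp, all short of the end of its first intron at 60414 bp. Tcf7l2, a Wnt pathway transcription factor, had 11110, 15566, 11613, 11440, 11458 and 11051 bp. Vinculin (Vcl), of focal adhesions, had 15344, 15098, 21816, 15104, 14858 and 11668 bp. The chromodomain helicase Chd2 had 15807, 13527, 18586, 13805, 13608 and 13699 bp and no Myc peak at its promoter at 0 min or 4 h. With gaps of up to 1 kb bridged Col5a2 had 17298, 57300, 57018, 17007, 17396 and 55624 bp and Chd2 44730, 44556, 18586, 42083, 44315 and 38439 bp, so these 2 were not steady on that measure, while the Tcf7l2 values stayed as given. Ext1 is different. At Ext1, a heparan sulfate polymerase, the narrow run was 31827 bp at 0 min and 31874 bp at 30 min and no narrow peak was called at the other 4 times, where the broad TSS peak was 20.0 to 21.5-fold.

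Few members had longer runs at 4 h. Pkp4, a junction protein of the armadillo family, had runs of 3601, 10065, 0, 12281, 11725 and 10649 bp, and Rspo2, a secreted activator of Wnt signalling, had 3780, 4018, 5743, 3759, 5997 and 9236 bp. Together with Pan3 these are the 3 members longer at 4 h by 5 kb or more. Notch2 and the transcription factor Ebf3 were also among the 6 largest gains to 4 h, with 4 h runs of 6260 and 6213 bp against 1619 and 2038 bp at 0 min. With gaps of up to 1 kb bridged their 0 min runs were 7654 and 6359 bp and the 4 h runs stayed as given. Neither gene was longer at 4 h on that measure.

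Because the rule used the 0 min list, later times were also compared with each other, in the 2 pairs of libraries with near-equal tag numbers. Members with a run longer by 5 kb or more at 10 min than at 2 h numbered 18 (1.72%, against 3.6% of all 5225 genes), and those shorter 5 (0.478%, against 0.9%). At 30 min against 4 h, 22 were longer (2.10%, against 3.18%) and 7 shorter (0.669%, against 0.88%). With gaps of up to 1 kb bridged the counts were 34 longer and 9 shorter in the first pair (5.26% and 1.68% of all genes) and 31 and 11 in the second (4.84% and 1.49%). In the broad lists they were 0 and 0 (0.0574% and 0.0191%) and 2 and 0 (0.134% and 0%). Where both times had a narrow peak at the TSS, the counts were 18 and 2 for the first pair (1.86% and 0.207%, against 3.58% and 0.634% of all genes so limited). For the second pair they were 21 and 4 (2.17% and 0.413%, against 3.2% and 0.551%). The median run was longer at the earlier time in both pairs, 1499.5 against 1405 bp and 1350.5 against 1256 bp. More members were longer than shorter at all, 654 against 363 and 636 against 378. Over all 5225 genes the medians were 1611 against 1494 bp and 1448 against 1349 bp. There 3155 genes were longer and 1863 shorter in the first pair, and 3222 and 1792 in the second. The difference is thus not particular to the members. In these pairs 5 members were longer both times: Gfod1, Hmga2, Notch2, Prkca and Samd4. The shorter ones at 30 min than at 4 h included Asap1, Cald1, Eya4, Hspg2, Meis1 and Rspo2.

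Farther inside the genes, the mean percent of each 10 kb bin under narrow peaks was taken. From 0 to 10 kb it was 18.9% at 0 min, 23.0% at 10 min, 25.2% at 20 min, 20.8% at 30 min, 20.3% at 2 h and 18.4% at 4 h. From 10 to 20 kb it was 3.78%, 6.33%, 8.64%, 5.57%, 4.53% and 3.19%, and from 90 to 100 kb 3.04%, 4.89%, 7.69%, 3.803%, 3.51% and 2.72%. Cover was thus near flat past the first 20 kb, and the order of times was the same in these 3 bins. The ratio of 10 min to 0 min was 1.67 in the bin from 10 to 20 kb, 1.37 from 20 to 30 kb and 1.61 from 90 to 100 kb, so no bin marked an outer end of the difference. For 30 min the same 3 ratios were 1.47, 1.42 and 1.25, and for 4 h 0.844, 0.863 and 0.893. They did not change steadily with distance. The 30 min ratio was 1.60 from 50 to 60 kb, and the 4 h ratio was 0.933 from 40 to 50 kb and 0.875 from 70 to 80 kb. In the 10 kb upstream of the TSS the ratios at 10 min, 30 min and 4 h were 1.13, 1.02 and 0.970, closer to 1 than in any of the 9 bins from 10 to 100 kb. From 0 to 10 kb they were 1.22, 1.10 and 0.974. Both bins beside the TSS hold parts of the promoter peaks that the rule required, with upstream cover of 15.9% at 0 min. Their ratios are thus no control for those farther inside.

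The 1278 long genes without promoter RNAPII at 0 min had mean cover from 10 to 100 kb of 0.463% at 0 min, 0.662% at 10 min, 0.976% at 20 min, 0.637% at 30 min, 0.512% at 2 h and 0.429% at 4 h. In the members these were 3.08%, 4.803%, 7.33%, 4.36%, 3.62% and 2.73%. The level was lower without promoter RNAPII and in these same libraries the order of the 6 times was the same in both sets, so this order is not particular to the members. Cover from 0 to 10 kb at 0 min (0.307%) is low in these genes by the rule itself.

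**Figure D4:**
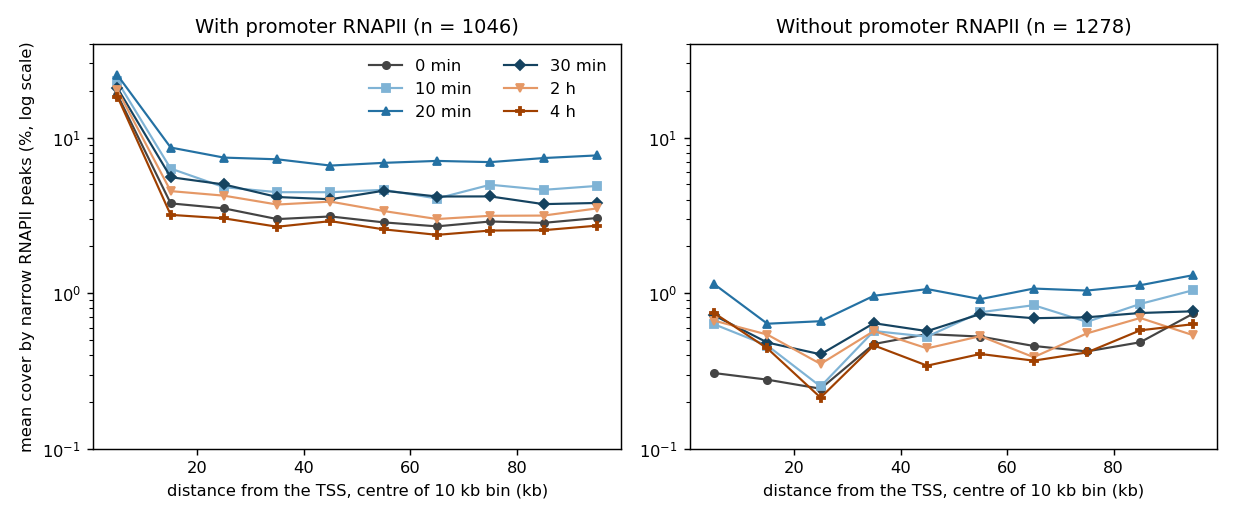
Mean cover of successive 10 kb bins by narrow RNAPII peaks, in percent on a log axis, against distance from the TSS in kb, with a line per time, for the 1046 members (left) and the 1278 long genes without promoter RNAPII at 0 min (right). Among the members the 20 min line is highest and the 4 h line lowest in each bin, and the lines run side by side from 20 kb on.

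This cover was concentrated in few genes. At 0 min 772 of 1046 members had none from 10 to 100 kb and 16 were covered to 50% or more, at 20 min 640 had none and 55 were so covered, and at 4 h 811 had none and 19 were. The 104 members with the highest cover held 84.3% of all cover at 0 min, 70.3% at 20 min and 89.0% at 4 h. A difference of 10 percentage points or more was counted as higher or lower. At 30 min 66 members were higher than at 4 h and 13 lower (6.31% and 1.24%, against 3.18% and 0.688% of all 2324 long genes). At 10 min 69 were higher than at 2 h and 31 lower (6.60% and 2.96%, against 3.27% and 1.46%). Against the 0 min library, 56 were higher and 20 lower at 30 min (2.71% and 0.904% of all long genes), and 18 higher and 39 lower at 4 h (0.904% and 1.85%). In the broad lists 5 members were higher at 30 min than at 4 h and 0 lower (0.387% and 0%), and 5 were higher at 10 min than at 2 h and 2 lower (0.344% and 0.0861%). There 4 were higher and 2 lower at 30 min than at 0 min (0.301% and 0.0861%), and 0 higher and 6 lower at 4 h (0% and 0.301%). Since long genes without promoter RNAPII seldom have any cover, a share above that of all long genes was fixed in part by the rule.

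Some members at the ends of this comparison were picked for their values. Samd4 was covered to 16.9%, 76.0%, 59.2%, 79.1%, 5.45% and 2.66% from 10 to 100 kb at the 6 times. Myof (myoferlin, of membrane repair) was covered to 17.02%, 76.9%, 83.3%, 35.0%, 8.01% and 8.11%. Spata5 had 0%, 11.6%, 51.9%, 57.5%, 16.4% and 4.36%, and Mdn1, a ribosome biogenesis ATPase, 0%, 50.1%, 39.0%, 54.0%, 46.8% and 7.19%. Smad3, the signal transducer of TGF-beta receptors, had 10.0%, 32.3%, 71.2%, 53.7%, 6.05% and 0%. These 5 genes all lay above their 4 h value at 10, 20 and 30 min, which was fixed in part by the way they were picked. Mprip, from the same end of the comparison, did not, with 7.73% at 20 min and 16.0% at 4 h. It was not the only such member at that end. On the other side Cald1 had 89.3%, 0%, 0%, 0%, 43.7% and 92.0% under narrow peaks. Under broad peaks Cald1 had 35.2%, 39.3%, 87.6%, 61.7%, 32.7% and 6.96%, highest at 20 min and lowest at 4 h. Crim1 likewise had 0% narrow cover at 20 and 30 min beside 27.1% and 8.80% broad cover. Other members were lower at 10 min than at 2 h with narrow cover at both times. Among them were Nrp2 (24.7% and 77.6%), Lphn2 (18.1% and 57.7%), Gxylt2 (17.3% and 56.8%) and Tns3 (19.3% and 55.2%). In the broad lists the members' mean cover was 0.369%, 0.537%, 1.19%, 0.526%, 0.360% and 0.209%, with 20 min highest and 4 h lowest as well.

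In terms of gene structure, runs ended in the first intron in 88.6% of members with a run at 0 min, 88.0% at 30 min and 87.3% at 4 h. Exon 1 had a median of 250.5 bp and intron 1 of 27522 bp. Runs passed intron 1 in 90 members (8.68%) at 0 min, and later in 109 (10.8%, 20 min), 92 (9.34%, 30 min) and 93 (9.38%, 4 h). In genes of 20 to 100 kb, whose first introns had a median of 6906 bp, 17.97% passed it at 0 min and 25.01% at 20 min. By length within the members, the median run at 30 min was 1399 bp in 493 genes of 100 to 150 kb, 1312 bp in 337 of 150 to 250 kb and 1316 bp in 216 of 250 kb or more, with 9, 8 and 3 longer by 5 kb or more than at 0 min. Mean cover from 10 to 100 kb was lower in longer genes at all 6 times, with 5.28%, 5.15% and 3.16% at 10 min and 8.54%, 7.33% and 4.56% at 20 min in the 3 length classes.

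Myc sat at most of these promoters before OHT. A Myc peak lay within 1 kb of the TSS in 945 members (90.3%, Wilson 95% interval 88.4 to 92.0%) at 0 min and 995 (95.1%, 93.6 to 96.3%) at 4 h, against 91% and 94.3% of all 5225 genes of 20 kb or more with promoter RNAPII. The intervals cover counting error only. Of the members, 930 had Myc at all 6 times, 40 at the 5 later times and not at 0 min, and 21 at no time (88.9%, 3.82% and 2.01%, against 89.2%, 2.83% and 2.39% of all 5225 genes). The 1278 long genes without promoter RNAPII had it in 5.40% at 0 min and 8.76% at 4 h. Among the 40 that carried Myc only after OHT, the highest fold at 4 h was 16.1 (Cdyl2, a chromodomain protein), against a median of 16.2 over the 995 members bound at 4 h.

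The highest Myc folds at 4 h were those of 2700049A03Rik (123-fold), Tbl1x, a subunit of a corepressor complex (102-fold), Ino80, the ATPase of a chromatin remodeler (88.1-fold), Tdrd3 (86.4-fold), Pbrm1, a subunit of the PBAF remodeler (83.7-fold), and Atpbd4 (81.3-fold). Their runs did not share a course. Ino80 had 1848, 7357, 5560, 5410, 5510 and 4655 bp at the 6 times, longer at each later time than at 0 min. 2700049A03Rik had 1459, 1438, 1400, 1464, 1549 and 1221 bp, and Atpbd4 1932, 2237, 2017, 2206, 2281 and 2510 bp. Tbl1x had 1975, 3985, 5811, 1819, 2706 and 1537 bp, Tdrd3 2778 to 3355 bp outside 20 min (2223 bp), and Pbrm1 3834, 4295, 4419, 4626, 2404 and 2254 bp.

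The members were next ordered by the fold of their 4 h Myc promoter peak. In the 332 with the highest fold (20.99 to 122.96) the median run was 1457.5 bp at 0 min, 1780 at 10 min, 1873 at 20 min, 1669.5 at 30 min, 1771.5 at 2 h and 1566 at 4 h. In the 331 in the middle it was 1328, 1522, 1525, 1350, 1422 and 1293 bp, and in the 332 with the lowest fold 1181.5, 1307, 1314.5, 1167.5, 1224 and 1081 bp. In the 51 without Myc at 4 h it was 961, 967, 1024, 768, 621 and 790 bp. The first quartile of these 51 was 661.5 bp at 0 min, where the rule required a narrow peak. At 10 min, 30 min, 2 h and 4 h it was 0 bp, so runs of 0 weigh on the medians and differences of this set. The median difference from 0 to 30 min was 180.5, 75, 21.5 and -66 bp in these 4 sets, and members longer by 5 kb or more at 30 min numbered 13, 3, 4 and 0. All 20 of them had Myc at the promoter at 0 min and at 4 h, as did 90.3% and 95.1% of all members. The sets also differed in the fold of the RNAPII promoter peak at 0 min, with medians of 29.6, 25.7, 19.5 and 12.2, and the part of this in the difference was not tested. The highest set also had the most members shorter by 5 kb or more at 30 min (6, against 2, 1 and 0). Mean cover from 10 to 100 kb in the highest set was 4.50%, 7.39%, 11.4%, 7.42%, 6.65% and 4.84%, and in the lowest set 2.23%, 3.39%, 5.11%, 3.21%, 2.16% and 1.67%. In the 51 members without Myc at 4 h it was 3.22%, 4.27%, 5.82%, 3.45%, 3.74% and 2.07%. These lay above the lowest set at each time, so cover did not rise steadily over the sets.

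**Figure D5:**
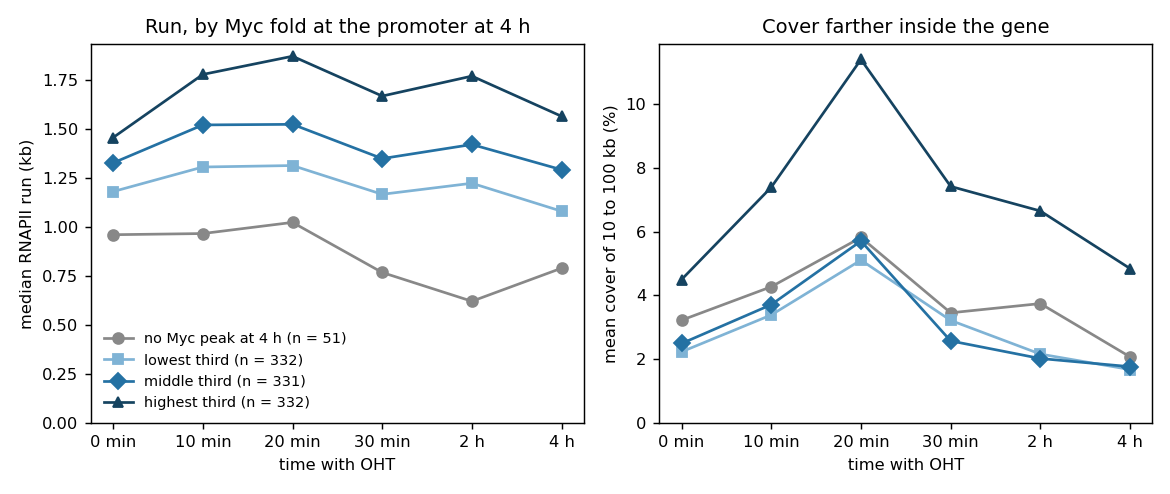
Median RNAPII run in kb (left) and mean cover of 10 to 100 kb in percent (right) against time with OHT, in members grouped by the fold of their Myc promoter peak at 4 h. The highest set lies above the others in both panels at all 6 times, and already so at 0 min.

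Inside the members, more than 1 kb from their TSS, Myc had 2037 summits at 0 min, 2703 at 10 min, 2931 at 20 min, 2466 at 30 min, 3132 at 2 h and 2551 at 4 h, in 650 to 764 genes. All Myc peaks of the genome numbered 19995, 24066, 25702, 22996, 27388 and 23617 in the same order of times, and summits inside the 1278 other long genes 1149, 1559, 1692, 1472, 1854 and 1518, so this order is not particular to the members. Of these, 8.89% at 0 min and 7.60% at 4 h lay within 1 kb of the TSS of a protein-coding transcript. Peaks overlapping a narrow RNAPII peak of the same time made up 32.6% at 0 min, 31.3% at 10 min, 36.8% at 20 min, 31.7% at 30 min, 23.5% at 2 h and 23.4% at 4 h. The share was lower at 2 h and 4 h than at the 10 and 30 min times with near-equal RNAPII tag numbers. In the 1278 other long genes it was also lower, 21.5% and 21.6% at 10 and 30 min against 15.2% and 17.8% at 2 h and 4 h. Summits were spread along the gene, with 15.4 per 100 genes from 0 to 10 kb and 8.89 from 90 to 100 kb at 0 min, and 20.1 and 11.1 at 4 h. The median Myc fold inside was 8.27 at 0 min, against 11.2 at the members' promoters.

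The genes with the most Myc summits inside were Gm20388 with 138 at 0 min and 156 at 4 h, Fgfr2 with 38 and 45, Atxn1 with 14 and 16 and Smad3 with 14 and 14. The first pair spans many other genes. Smad3 reached its count within 111228 bp, and its RNAPII run was 3865 bp at 0 min, 22806 bp at 20 min and 3343 bp at 4 h.

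The E-box was more frequent at Myc summits than beside them. CACGTG, a palindrome and thus the same on both strands, lay within 100 bp of the summit in 161 of 1024 promoter peaks of members at 4 h (15.7%, Wilson 95% interval 13.6 to 18.1%), against 2.10% of windows of the same 200 bp width 1000 bp away. Inside the members it lay at 292 of 2551 peaks (11.4%, 10.3 to 12.7%), against 2.80% in the flanks, and over all Myc peaks at 14.2%. Counting CACGCG (on either strand) as well, the shares were 35.6% at promoters, 15.0% inside and 23.8% over all peaks, with 4.88%, 3.47% and 4.00% in the flanks. At 0 min the shares for CACGTG alone were 17.01%, 13.2% and 15.8%. At both times the variant thus added more at promoters than inside genes. Of the genes with the largest RNAPII gains, Mthfd1l and Hmga2 had the motif within 100 bp of the summit of the promoter peak, while Smarcc1, Pan3, Notch2, Samd4 and Spata5 did not have these letters in that window.

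By function, 8 lists of genes were followed, which are samples of each class and not complete, with 1.91% of all members longer and 9 of 1046 shorter by 5 kb or more at 30 min for comparison. Of 32 kinases, phosphatases and receptors, 3 were longer at 30 min (Cdk6, Notch2 and Prkca) and 0 shorter, and the median run was 1574.5 bp at 0 min and 1677 bp at 30 min. Cdk6, a cyclin-dependent kinase of the G1 phase, had runs of 1360, 1543, 9651, 9932, 5927 and 2828 bp. Of 26 cytoskeleton and junction genes 1 was longer and 2 shorter, and the median was 1736 and 1718.5 bp. Of 45 transcription factor and chromatin genes 0 were longer and 2 shorter, with medians of 2375 and 2386 bp, so that the list's runs were longer than the members' median of 1285 bp already at 0 min. Hmga2 and Smarcc1, both longer at 30 min and with roles in chromatin, are not on this list. Of 24 GTPase regulators 0 were longer and 1 shorter, with medians of 1175.5 and 1326.5 bp. Here 18 had any gain and 6 any loss, beside 643 and 394 of all members. The 2 with the longest runs at 30 min were Tiam2 (7750 bp, 6175 bp at 0 min) and Dock5 (3896 bp, 1652 bp at 0 min), both activators of Rac.

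In the 23 extracellular matrix and cell surface genes 0 were longer or shorter at 30 min, with medians of 2575 and 2464 bp, and at 4 h the median was 1778 bp. Hspg2, shorter at 30 min, and the collagen gene Col8a1, longer with 6205 against 1086 bp, are not on this list. In the 19 ubiquitin ligases and proteases 0 were longer or shorter at 30 min, with medians of 1105 and 1191 bp, and 2 were longer at 20 min. Usp24, a deubiquitinase, had runs of 1763, 5606, 3787, 4137, 6114 and 1529 bp, and the ligase Ube3c 2656, 3713, 7038, 4018, 3457 and 5330 bp. Among 12 RNA-binding proteins, a list that does not hold Samd4, 0 were longer or shorter at 30 min, and the splicing regulators Mbnl2 (5200, 6978, 10307, 5451, 5479 and 3469 bp) and Qk (173, 6039, 5863, 3328, 168 and 148 bp) had the longest runs then. Qk was longer at 10, 20 and 30 min than at 0 min, 2 h and 4 h, but with gaps of up to 1 kb bridged its 0 min run was 3327 bp. In the 29 membrane traffic genes none was longer or shorter by 5 kb at any time, with medians of 1120 bp at 0 min and 1164 bp at 30 min. Of all 1046 members, only 67 were longer by 5 kb or more at any later time. Whether 0 of 29 differs from that share was not tested, so the count does not set this list apart. The early endosome tether Eea1 had runs of 1220 to 2234 bp over the 6 times, and the endocytic adaptor Eps15 had 929 bp at 0 min and 1994 to 2342 bp later. Eps15 is also among the 40 members with Myc at the later times only.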

How the data were processed

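Peak lists of 13 fibroblast libraries (6 Myc, 6 RNAPII with a narrow and a broad list each, 1 Miz1) were used. The input served the authors as control, and the B cell Miz1 list was not used here. Per the submitters' processing notes, the build was mm9 and the tools were BWA 0.6.2-r126 and MACS2 2.0.9. Narrow RNAPII lists and Myc lists came from MACS 1.4.2 and broad RNAPII lists from MACS 2.0.9, at p 1.00e-08, on 1 library each, per the file headers. The deposited values per peak are a tag count, a score of −10log10 p (or −log10 p in the MACS 2.0.9 lists) and fold enrichment, a ratio over control. The authors' folds were used to rank and filter within a list. Folds of different times printed side by side, and the cut of 20-fold applied to each broad list, come from libraries of different depth. The fibroblast Miz1 list came from MACS 2.0.9 at p 1.00e-02, per the file headers.

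From these, Python 3.11.15 (numpy 2.4.6, pandas 2.3.3, scipy 1.17.1) computed runs, bin cover and overlaps (1 bp or more) on GENCODE vM1, and read motifs from the mm9 genome. A run takes the peak over the TSS, or else the nearest one downstream within 1 kb, up to the gene's end. Functions were tested on simulated peaks of known extent. Tag numbers ran from 15276996 to 36396286 for RNAPII and from 28132063 to 33431447 for Myc, so weak signal passes more readily in deeper ones. With 1 library per group no test was possible. The members, gene lists and rules were chosen with earlier results of these data known. Named genes are the 8 longest runs at 0 min, the 10 largest gains and 6 largest losses to 30 min, the 6 largest gains to 4 h, the 6 highest Myc folds at 4 h, the 4 with most Myc summits inside, and 2 per functional list (longest run at 30 min). Alternatives varied gaps, lists, peak thresholds, window, length, TSS and step. The pairs of later times, the joined lists and the limit to genes with a narrow peak at both times were added after seeing the data. Some genes that meet these rules are not reported here.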

Additional observations from a re-analysis of the deposited data

How the results depend on the processing

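All values here are descriptions of single libraries. Over 13 alternatives, more members were longer than shorter by 5 kb or more at 30 min than at 0 min in 13, at 30 min than at 4 h in 13, and at 10 min than at 2 h in 12 (1 tie). For 4 h against 0 min more were shorter in 12 (1 tie). Counts are given longer then shorter. For 30 min against 0 min they were 58 and 23 with gaps of up to 5 kb bridged, 1 and 0 in broad lists, 11 longer in genes of 150 kb or more, 11 and 5 at a step of 10 kb, and 5 shorter with narrow TSS peaks at both times. For 4 h against 0 min they were 11 and 16 with gaps of 1 kb, 24 and 40 with gaps of 5 kb, 0 and 1 in broad lists, 3 shorter in genes of 150 kb or more and 0 longer at 10 kb. For 10 min against 2 h they were 34 and 9 with gaps of 1 kb, 60 and 31 with 5 kb, 0 and 0 in broad lists, 10 and 3 at 150 kb or more, 10 longer at a step of 10 kb and 2 shorter with peaks at both times. For 30 min against 4 h they were 11 shorter with gaps of 1 kb, 59 and 18 with 5 kb, 2 and 0 in broad lists, 12 and 4 at 150 kb or more, 9 and 3 at 10 kb, and 4 shorter with peaks at both times. Over all 5225 genes, the shares with gaps of 5 kb were 8.06% and 3.44%, 5.21% and 4.48%, 8.13% and 3.44%, and 6.85% and 2.95% for these 4 comparisons in order. At a step of 10 kb they were 2.03% and 0.574%, 0.804% and 0.995%, 1.91% and 0.498%, and 1.72% and 0.44%. With peaks at both times 0.803%, 1.39%, 0.634% and 0.551% of genes were shorter. The members of 150 kb or more numbered 553. A step of 10 kb, genes of 150 kb or more and peaks at both times count fewer genes by construction; the cause of the other differences was not tested.

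In broad lists the median run was 411 bp at 0 min, 435.5 bp at 30 min and 405.5 bp at 4 h. By Myc fold it was 490.5 bp at 0 min and 589 bp at 30 min in the highest set and 378.5 and 339.5 bp in the lowest. There 1 and 0 members were longer at 30 min, and 20 in the highest set with gaps of 1 kb. Mean cover from 10 to 100 kb at 0 min, 30 min and 4 h was 0.369%, 0.526% and 0.209% in broad lists and 1.89%, 2.92% and 1.64% with narrow peaks of −10log10 p 160 or more. Myc was at 78.1% of promoters at 0 min and 89.5% at 4 h at that score, and at 82.8% and 85.5% when the summit had to lie within 1 kb. Myc summits inside numbered 1262 at 0 min at that score. No paired analysis was possible because each group holds 1 library.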

Other observations

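At the promoters of the long genes with RNAPII the stretch from 250 bp before to 50 bp after the TSS had a median GC content of 66.3%, against 58.0% in long genes without it and 62.7% in genes of 20 to 100 kb with it. The ratio of observed to expected CpG was 0.6 or more in 84.0%, 44.5% and 83.9% of these sets.

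Miz1 had a peak at the promoter of 181 long genes with RNAPII (17.3%, Wilson 95% interval 15.1 to 19.7%), against 14.2% of the genes of 20 to 100 kb and 14.8% of both together. The highest Miz1 folds were at Pex14 (198-fold), a peroxisomal import factor, Exoc2 (171-fold), of the exocyst, Ambra1 (168-fold), of autophagy, Taok3 (140-fold), a kinase, and Ino80 (128-fold). These genes were chosen after their values were seen. Ino80 thus combined high folds of Myc and Miz1, while Pex14, Exoc2, Ambra1 and Taok3 had Myc folds at 4 h of 17.7, 23.2, 12.5 and 8.15.

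Some members are not independent of each other. In 9 pairs the starts lay within 1 kb, in 8 of them on opposite strands. Fgfr2 and Ctbp2 start 17 bp apart on the same strand, so their runs (2731 and 2748 bp at 0 min, 16708 and 16725 bp at 10 min, 26529 and 26546 bp at 20 min) are 1 measurement counted for both genes.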
